A study of Mus musculus with 2 samples.

Results

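The seed family of miR-15, miR-16, miR-195 and miR-497 was described in 2 small RNA libraries from mouse hippocampal tissue. Its 6 genes, Mir15a, Mir16-1, Mir15b, Mir16-2, Mir195a and Mir497, were chosen by name in the GENCODE M21 annotation, out of 2202 miRNA genes in the count files. The tissue came from female B6CASTF1/J mice (offspring of B6 and CAST parents) of 18 to 20 months, with no treatment named in the labels, and is labelled as a layer of hippocampus, the layer not being named. RNA under 30 nt was sequenced. Both libraries belong to 1 group and are numbered biological replicates 1 and 2. Their tissue records carry different animal numbers but the same donor record, so the spread between them may be partly technical.

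MicroRNAs are short RNAs that are cut from hairpins and guide silencing of messenger RNAs, which they recognise mainly through the seed, bases 2 to 8 of the mature strand. Members of the miR-15/16 family share a seed and are known for restraining cell cycle genes such as cyclins and for lowering BCL2. The Mir15a and Mir16-1 pair is known as a tumour suppressor locus lost in chronic lymphocytic leukaemia, and the Mir195a and Mir497 pair is known for cell cycle exit in heart and skeletal muscle. In the brain, members of the family have been linked to neuronal death after ischaemia.

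The seed-bearing mature strands are shown first, because they are what the 6 genes have in common and because the likeness between them sets which reads can be assigned to a single gene. Sequences are from RefSeq (GRCm38.p6), in which all 6 genes had an entry, and capitals mark the seed.
miR-15a-5p (Mir15a): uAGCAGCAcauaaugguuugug
miR-15b-5p (Mir15b): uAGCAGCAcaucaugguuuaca
miR-16-5p (Mir16-1 and Mir16-2): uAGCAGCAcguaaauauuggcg
miR-195a-5p (Mir195a): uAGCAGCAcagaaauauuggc
miR-497a-5p (Mir497): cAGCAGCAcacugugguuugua
All 6 genes carried the same seed on the 5p arm, in 5 distinct sequences of 21 or 22 bases. Aligned from base 1 without gaps, 10 of the first 21 positions held 1 base in all 6 genes: bases 2 to 9, which extend the seed by a base, and bases 17 and 18. Over all compared bases, these 10 included, the sequences fell into likenesses that did not follow the gene pairs. miR-195a-5p matched miR-16-5p at 19 of 21 compared bases and differed by G10A and U11G (miR-16-5p base, position from the 5′ end, miR-195a-5p base). It matched its own neighbour miR-497a-5p at 12 of 21 bases. miR-15a-5p and miR-15b-5p matched at 18 of 22 bases, and miR-15a-5p and miR-497a-5p at 17 of 22.

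The 6 genes lie in 3 pairs of neighbouring hairpins in mm10. Mir15a (ENSMUSG00000093007.1) is at chr14:61632027-61632110 and Mir16-1 (ENSMUSG00000092995.1) at chr14:61631880-61631972, both on the minus strand, with 54 bases between them. Both lie in the noncoding gene Dleu2 on the same strand, Mir15a in an intron and Mir16-1 overlapping an exon of 1 annotated transcript. Mir15b (ENSMUSG00000065580.2) is at chr3:69009772-69009835 and Mir16-2 (ENSMUSG00000065606.1) at chr3:69009902-69009996, on the plus strand, with 66 bases between them. Both lie in an intron of Smc4, which encodes a condensin subunit needed to compact chromosomes in cell division. Mir497 (ENSMUSG00000105220.1) is at chr11:70234717-70234800 and Mir195a (ENSMUSG00000065411.2) at chr11:70235042-70235135, on the plus strand, with 241 bases between them. No other annotated gene overlaps Mir195a. Mir497 lies wholly within Mir497b, a hairpin gene of 125 bases on the minus strand at chr11:70234692-70234816.

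The copies Mir16-1 and Mir16-2 give the same miR-16-5p, and the hairpins below show how much of each cannot be told from the other. Capitals mark the 23 bases that both share, namely the 22 bases of miR-16-5p and 1 base after it.
Mir16-1 hairpin: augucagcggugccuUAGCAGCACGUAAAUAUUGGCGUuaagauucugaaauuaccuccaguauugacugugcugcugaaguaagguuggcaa
Mir16-2 hairpin: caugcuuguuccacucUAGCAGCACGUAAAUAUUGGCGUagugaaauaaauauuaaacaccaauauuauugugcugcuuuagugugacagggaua
A read that lies within those 23 bases fits both genes, and the files set multimapping reads apart from the gene counts. The levels of Mir16-1 and Mir16-2 can therefore be too low and leave the abundance of miR-16-5p unknown. Their 3p strands, shown next with bases 2 to 8 in capitals, differ and each matched 1 hairpin.
miR-16-1-3p: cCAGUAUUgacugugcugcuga
miR-16-2-3p: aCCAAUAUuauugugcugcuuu
The 5p sequences of Mir15a, Mir15b, Mir195a and Mir497 each matched 1 of the 2202 hairpins exactly. For Mir15a, Mir15b and Mir497 the longest stretch shared with any other hairpin was 12 or 13 bases. Mir195a shared 16 bases with Mir195b, a separate gene on chromosome 2. The counts are per hairpin and do not say which arm was read.

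Replicate 1 held 2255838 sense counts in miRNA genes and replicate 2 held 4521208. Levels are given in CPM, counts per 1000000 of those sense counts, without a length correction since each mature strand is read as a whole. Multimapping reads made up 36.2% and 47.9% of all reads in replicates 1 and 2, and unmapped reads 29.0% and 11.2%. Neuronal marker genes summed to 107344 and 83984 CPM, led by Mir127, Mir132 and Mir128-1, and 9 of 10 had a count in both libraries. Each of the 3 Mir124a genes, identical in mature sequence and typical of neurons, stood below 3 CPM. Such copies can lose reads to multimapping, so their low counts leave the abundance of miR-124 unknown. In replicate 1 Mir124a-1 and Mir124a-3 lay under the floor of 3 counts, and in replicate 2 Mir124a-2 was at 0. Striated muscle markers summed to 23.5 and 33.2 CPM, with Mir1a-1, Mir1a-2, Mir133a-1 and Mir133a-2 at 0. Poisson intervals below are exact at 95% and cover counting error only, not the spread between libraries. Reads made by PCR without molecular identifiers are not independent molecules, so the intervals can be too narrow even for counting error.

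All 6 family genes were detected in both libraries, and Mir195a held the most counts in each. The family summed to 10217 counts in replicate 1, or 0.453% of the library (95% exact binomial interval 0.444 to 0.462), and to 69269 counts in replicate 2, or 1.53% (1.52 to 1.54). Its mean share was 0.993% ± 0.763 (SD, n = 2). Most of that gap lay in 1 gene: without Mir195a the remaining 5 genes took 0.226% and 0.290% of the counts. Mir195a made up 50.1% of the family's counts in replicate 1 and 81.1% in replicate 2, and Mir15a 21.9% and 8.61%. These shares leave out multimapping reads, so the copies Mir16-1 and Mir16-2 can be too low in them.

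Mir195a stood at 2268 CPM in replicate 1 (2206 to 2331) and 12419 CPM in replicate 2 (12316 to 12522), from 5116 and 56149 counts. That was rank 64 of the 2202 genes in the first library and rank 18 in the second. Its mean was 7343 ± 7178 CPM (SD, n = 2), so the spread was nearly as large as the level itself. Its neighbour Mir497 stood at 704 CPM (670 to 740) and 1004 CPM (975 to 1034), a mean of 854 ± 212 CPM, at ranks 112 and 89. Mir497 was thus the less abundant of the pair in both libraries.

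Mir15a, from the Dleu2 pair, had the second highest CPM of the members in both libraries. It stood at 992 CPM (951 to 1034) in replicate 1 and 1319 CPM (1286 to 1353) in replicate 2, a mean of 1155 ± 231 CPM, at ranks 101 and 80. Its neighbour Mir16-1 stood at 285 CPM (264 to 308) and 221 CPM (207 to 235), a mean of 253 ± 45.6 CPM. It was the only member with a lower CPM in replicate 2. Its log2 ratio was -0.37 with the gene sum as the total and -0.07 with all reads as the total. The other library scalings gave values between these. Settings of filter and fold cannot change this ratio.

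The Smc4 pair had the lowest summed CPM, in which the counts of Mir16-2 can be too low. Mir15b stood at 199 CPM (181 to 219) in replicate 1 and 264 CPM (249 to 279) in replicate 2, a mean of 232 ± 45.4 CPM. Mir16-2 was the lowest member in both libraries, at 79.8 CPM (68.6 to 92.3) and 94.0 CPM (85.3 to 103), a mean of 86.9 ± 10.05 CPM. Summed, Mir15b and Mir16-2 reached 279 and 358 CPM, against 1278 and 1540 CPM for Mir15a and Mir16-1 and 2972 and 13423 CPM for Mir195a and Mir497.

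By mean CPM the order was Mir195a, Mir15a, Mir497, Mir16-1, Mir15b and Mir16-2. The values of Mir195a lay above those of every other member, and those of Mir16-2 below. Mir15a and Mir497 overlapped across the libraries (992 and 1319 against 704 and 1004 CPM), although Mir15a was higher within each. Mir16-1 and Mir15b changed places, at 285 and 199 CPM in replicate 1 and 221 and 264 CPM in replicate 2, so they were not separated beyond their spread.

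**Figure D1:**
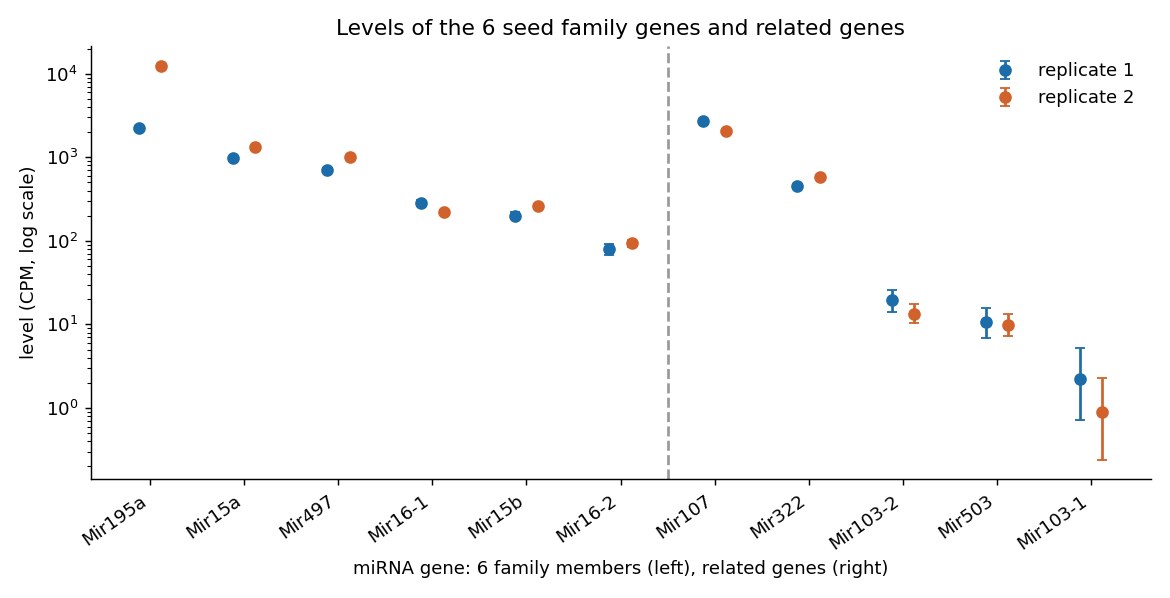
Level in CPM (log axis) of the 6 family genes and of 5 related genes in replicate 1 (blue) and replicate 2 (orange), with exact 95% Poisson intervals as bars, which are hidden by the point where narrow. Mir195a shows the widest gap, from 2268 to 12419 CPM, while the points of the other 5 members lie close together.

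The libraries were compared gene by gene with a two-sided exact conditional binomial test, and a gene was called at a Benjamini-Hochberg adjusted p under 0.05 and a difference of 2-fold or more. It sets the reads of 1 library against those of the other, with no replicate check, and in bulk tissue fewer cells of a type and less RNA per cell cannot be told apart. In all 495 genes reached a mean of 1 CPM and were tested; 17.6% were called, 3.84% higher and 13.7% lower in replicate 2. The higher and lower genes numbered 19 and 68, and with other library scalings they numbered 24 and 57 (edgeR TMM), 27 and 48 (DESeq2 size factors) or 34 and 39 (all reads as the total). Those scalings moved the median log2 ratio of the tested genes, -0.19, by 0.10, 0.18 and 0.30.

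Of the 6 members, all tested, 1 was called higher in replicate 2 and 0 lower. Over all tested genes 17.6% were called, 3.84% higher and 13.7% lower, so the count of members called is no result about the family. Mir195a was 5.48-fold higher (95% interval from counting error 5.32 to 5.64), a log2 ratio of 2.45. It had the third highest rise among the 495 genes, and 96.8% of them had a smaller absolute log2 ratio. Of the 96 genes whose mean reached 1000 CPM, 2 were called higher, Mir195a and Mir99b. When the error was estimated from the difference of the 2 libraries, Mir195a was not called: edgeR's exactTest gave it an adjusted p of 1 with gene-wise dispersions and 0.355 with a common one. That error came from the same 2 libraries that were compared, so a large difference raises its own error. The lack of a call therefore decides nothing about Mir195a.

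The other 5 members differed by less than 2-fold. Mir497 was at a log2 ratio of 0.51, or 1.43-fold (1.35 to 1.51), Mir15a at 0.41, Mir15b at 0.40 and Mir16-2 at 0.23. Mir16-1 was at -0.37, or 0.774-fold (0.7003 to 0.856). By p-value alone, 5 of the 6 members had an adjusted p under 0.05 in the exact binomial test, as did 53.5% of the tested genes, and Mir16-2 had 0.121. That count depended on the scaling: Mir16-2 had an adjusted p of 0.0176 in the same exact test with TMM factors and 0.00270 with DESeq2 size factors, and with all reads as the total Mir16-2 had 4.97e-05 and Mir16-1 0.498. The median log2 ratio of the 6 members was 0.41, against -0.19 over all tested genes. Their median absolute log2 ratio was 0.41 and that of all tested genes was 0.51. Relative to the median of the tested genes, Mir16-1 was at -0.18 and the other members lay between 0.42 and 2.64.

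**Figure D2:**
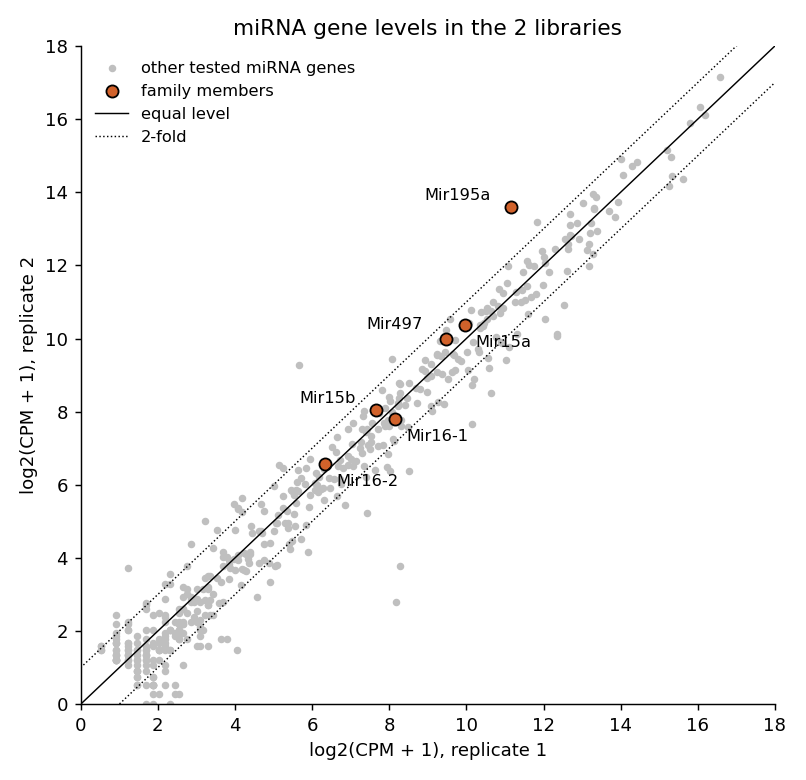
Level of each of the 495 tested genes as log2(CPM + 1) in replicate 1 (x) and replicate 2 (y), with the 6 members in orange, the line of equal level and dotted lines at 2-fold in CPM + 1. Mir195a lies well above the upper dotted line, and the other 5 members lie between the dotted lines.

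**Figure D3:**
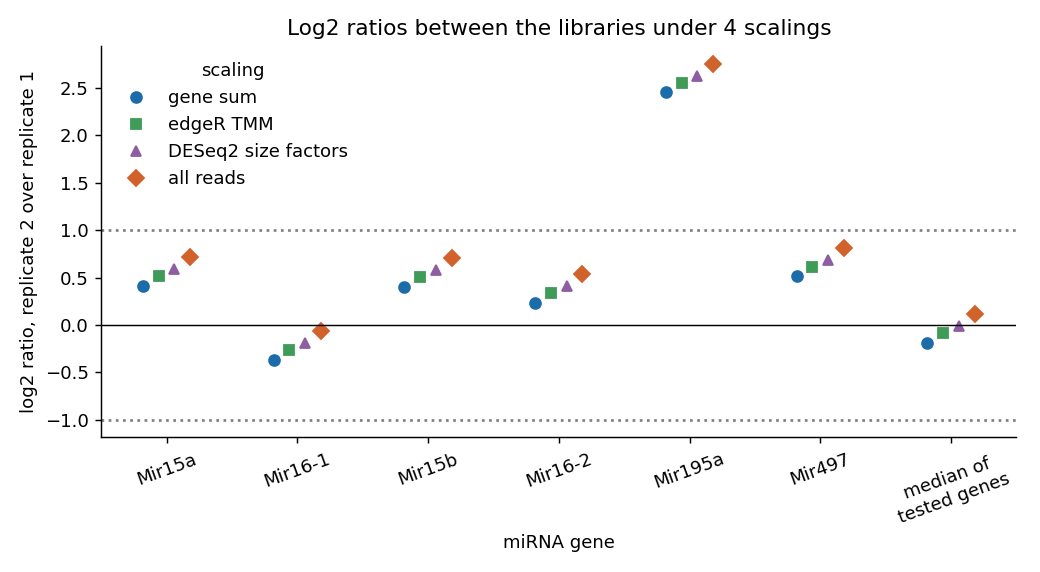
Log2 ratio of replicate 2 over replicate 1 for each member and the median of the 495 tested genes, under 4 library scalings (symbols), with dotted lines at 2-fold. All points of a gene move together with the scaling, Mir195a stays above 2.45 and Mir16-1 stays below 0.

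Values of other cell types' markers between the libraries are given beside the Mir195a difference, and their part in it was not tested. Endothelial and mural markers (Mir126a, Mir143 and Mir145a, 3 of 3 detected) summed to 29696 and 38353 CPM, with 0 called. Erythroid markers (3 of 3 detected) summed to 138 and 136 CPM; within them Mir144 was called higher, at 17.3 and 48.9 CPM, while Mir451a was at 105 and 71.0 CPM and was not called. Choroid plexus and ependyma markers (9 of 9 detected) summed to 3355 and 1572 CPM, with 4 called lower. The called genes were Mir34c, with the largest difference in CPM (1597 and 366), Mir429 (257 and 82.7), Mir200a and Mir34b. Mir204 (1034 and 800 CPM), Mir1298 (229 and 136) and Mir211 were lower but not called. Mir200b (78.5 and 85.4 CPM) and Mir449a (55.4 and 63.9) were higher and not called, so the list did not move as a whole. Microglia and leukocyte markers (6 of 6 detected) summed to 7598 and 3670 CPM, with Mir21a called lower, at 5880 and 1945 CPM. The rest of that list was not called. Mir150 was at 823 and 752 CPM, Mir146 at 701 and 798, and Mir142 at 157 and 116. Mir155 was at 24.4 and 43.8 CPM and Mir223 at 12.9 and 15.3. The neuronal list had Mir132 called lower, at 38949 and 18329 CPM. Not called but higher in replicate 2 were Mir128-1 (10436 and 14980 CPM), Mir128-2 (2112 and 2914) and Mir137 (10105 and 11969). Not called but lower were Mir127 (40253 and 31736 CPM), Mir138-1 (3602 and 2386) and Mir138-2 (1884 and 1666). The muscle list had no gene called, but only Mir206 and Mir499 of it reached the mean of 1 CPM needed for a test. The liver marker Mir122 was called higher at 14.6 and 43.1 CPM. Depth, unmapped reads and multimapping reads differed between the same 2 libraries as well, and their part was not tested either.

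Counts within a pair do not depend on how a library is scaled, and in each pair the first-named gene held more counts in both libraries. Mir195a held 76.3% of the counts of Mir195a and Mir497 in replicate 1 (95% exact binomial interval 75.3 to 77.3) and 92.5% in replicate 2 (92.3 to 92.7). There were 3.22 Mir195a counts per Mir497 count in the first library and 12.4 in the second, a 3.84-fold change of the ratio. Mir15a held 77.7% of the counts of Mir15a and Mir16-1 (76.1 to 79.2) and 85.7% (84.8 to 86.5), a 1.72-fold change of the ratio. Mir15b held 71.4% of the counts of Mir15b and Mir16-2 (67.7 to 74.9) and 73.7% (71.5 to 75.8), and these intervals overlapped. In the Dleu2 and Smc4 pairs the second gene is a copy of Mir16, whose counts can be too low because miR-16-5p reads fit both copies, and multimapping reads went from 36.2% to 47.9% of all reads; their part in these shares was not tested. The division of counts thus differed beyond counting error for the Mir195a and Dleu2 pairs. In the exact binomial test 53.5% of the tested genes also had an adjusted p under 0.05 between the libraries. Passing counting error is therefore common here and is no result about these pairs. Without replicates of each library no test beyond counting error was possible.

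**Figure D4:**
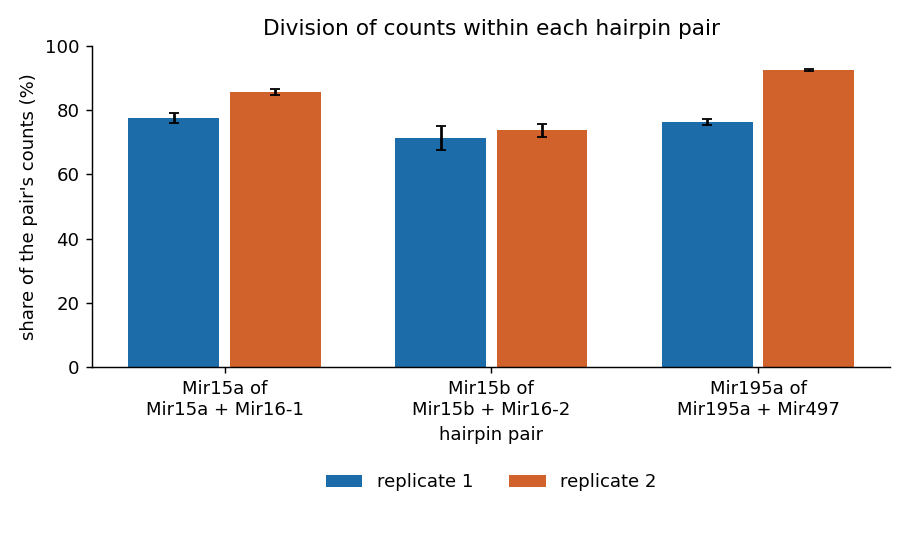
Share of each pair's counts held by Mir15a, Mir15b and Mir195a in replicate 1 (blue) and replicate 2 (orange), in percent from 0, with exact 95% binomial intervals. The share of Mir195a goes from 76.3% to 92.5%, while that of Mir15b is 71.4% and 73.7%.

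Reads were assigned to Mir497 on the sense strand only. It had 1589 and 4541 sense counts and 0 in the column counted without strand, where the overlapping Mir497b also read 0. Mir497b had no sense count in either library, which by the floor of 3 counts allows up to 1.33 CPM in replicate 1 and 0.664 CPM in replicate 2. None of the 6 members had an antisense count. The other 5 members had the same counts in the sense and the unstranded columns.

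Related genes were looked at for comparison. The seed of miR-15a-5p occurred in 11 of 1738 mature sequences in the RefSeq table (0.633%), from the 6 members and 5 other genes. Of these 5, Mir322 was detected above 1 CPM, at 457 CPM (430 to 486) and 577 CPM (555 to 600), 1.26-fold, a level between those of Mir497 and Mir16-1. Mir322, the mouse counterpart of human miR-424, carries the seed but has another base at position 9, and is known for promoting muscle differentiation.
miR-322-5p: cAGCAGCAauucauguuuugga
miR-195b: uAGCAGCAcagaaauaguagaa
Mir195b had 1 count in replicate 1 and 3 in replicate 2, although its mature strand resembles miR-195a-5p as shown. Mir6342, Mir6353 and Mir6419 had no count, with the same floor as Mir497b.

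The wider miR-15 and miR-107 group joins this family to genes whose AGCAGC motif starts at the first or second base. Its 5 listed genes outside the family (Mir107, Mir322, Mir103-2, Mir503 and Mir103-1) summed to 3238 and 2659 CPM, against 4529 and 15321 CPM for the 6 members. Mir107, which is known for metabolic control and lies in a pantothenate kinase gene, led them at 2748 CPM (2680 to 2818) and 2057 CPM (2016 to 2100). In replicate 1 Mir107 thus stood above Mir195a, and in replicate 2 below it. Mir503, the neighbour of Mir322 with another last seed base, stood at 10.6 and 9.95 CPM. Mir103-1 and Mir103-2, which share 1 mature sequence and can lose reads to multimapping, stood at 2.22 and 0.885 CPM and at 19.5 and 13.5 CPM. None of the 5 was called between the libraries, beside 17.6% of all tested genes, and so few genes allow no reading of that difference.
miR-107-3p: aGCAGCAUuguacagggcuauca
miR-503-5p: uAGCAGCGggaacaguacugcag

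The genes most like each member in level were found by the distance of log2(CPM + 1) over the 2 libraries, where 0 means equal levels in both. Mir195a had no close match: the nearest was Mir99b at a distance of 0.802, with 3635 and 9257 CPM, followed by Mir361 at 1.45. Every other member had a closer match. Mir15a was nearest to Mir341 (0.131), Mir497 to Mir28a (0.152), Mir16-1 to Mir7080 (0.0873), Mir15b to Mir329 (0.0553) and Mir16-2 to Mir3059 (0.0740). Such distances also depend on how many genes lie at a level. Mir195a had rank 30 by mean CPM, and distances between other genes of like level were not compared. With 2 libraries such likeness describes levels only.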

How the data were processed

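Small RNA libraries of 2 hippocampal tissue samples were used, 1 per sample. The deposited files hold raw read counts per miRNA gene without strand, sense and antisense, after 4 rows of totals that were kept out of library sizes; assembly mm10 and annotation GENCODE M21 come from the accompanying README files. Aligner and counter, with their parameters: not given in the sources used here. Reads of CAST alleles that differ from the reference could be lost.

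Sense counts were scaled to CPM on the gene sum. Means and SDs are over 2 libraries. Log2 ratios used a prior of 0.5 counts. The exact binomial test (SciPy 1.17.1) covered genes whose mean reached 1 CPM. It was run on simulated counts with counting error only, which does not check it on libraries that differ beyond counting error. edgeR 4.0.16 and DESeq2 1.42.0 served for alternative scalings and edgeR's exactTest. The floor was 3 counts. Named genes were all members, other RefSeq genes with the seed, the listed genes of the miR-15 and miR-107 group, overlapping hairpins, and the 2 nearest genes in level of members at 10 CPM or more, of which the nearest is given. The members, lists and tests were chosen with earlier results of these data known.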

Additional observations from a re-analysis of the deposited data

Results flagged for a closer look

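The antisense column is not used in the comparisons, and it held a signal at the gene that overlaps a member. Mir497b had 1589 antisense counts in replicate 1 and 4541 in replicate 2, the same numbers as the sense counts of Mir497 on the other strand, and no sense count.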

How the results depend on the processing

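Mir195a was called under 9 alternative settings of scaling, counting column, filter, fold and prior, with log2 ratios from 2.45 to 2.76. It was not called, at a log2 ratio of 2.45, by edgeR's exactTest, which gave 0 calls in all with gene-wise dispersions (2 genes at an unadjusted p under 0.05; 0 members, 0 higher, 0 lower). With a common dispersion, an alternative chosen after seeing the data, it gave 3 calls (26 genes at an unadjusted p under 0.05), 1 higher and 2 lower, and 0 members. Both dispersions came from the same 2 libraries that were compared, so the lack of a call in exactTest decides nothing about a member. No member's direction changed in any setting that gave it a value (Mir497 had none in the unstranded column). Settings of filter and fold cannot change a direction, so only the other settings bear on this. Calls over all genes numbered 53 (39 lower) with a minimum of 10 CPM and 141 (40 higher) at 1.5-fold. With all reads as the total, 34 were higher and 39 lower, and the mean levels of the members other than Mir195a fell by more than the SD, which follows from the larger total; without the 20 most abundant genes in the total all members' levels were higher by more than the SD. In the unstranded column Mir497 read 0 and the Mir195a share of its pair was 100%. Leaving out a library gives the other library's values.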
